A study of Mus musculus with 7 samples.

Results

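The genes described here encode the machinery of the G2 phase and of mitosis, and they were chosen by name from the deposited count table: 37 symbols, each found once among 23282 entries. All 37 passed the filter on low counts and are among the 13122 genes tested. Levels are counts per 1000000 counts of a library (CPM) from sequencing of messenger RNA 3′ ends. Per the labels, the libraries hold tdTomato+ tumour cells, sorted for that red fluorescent protein, from C57BL/6 mice labelled adult with glioblastoma: 4 libraries of genotype FYN-KO (Fyn-KO) and 3 of genotype WT. Fyn encodes a tyrosine kinase related to Src. Per the study's design text, each library was sorted and made independently. Both groups share strain, disease, age and sort, and the labels list no further allele or treatment. The tumour's origin, the driver of the knockout and of tdTomato, and the altered part of Fyn were not found in the labels.

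Cells that divide pass from DNA replication through G2 into mitosis, and many genes of that passage are transcribed together late in the cycle, so their RNA is widely read as a mark of dividing cells. Cyclin-dependent kinase 1 with its A- and B-type cyclins starts mitosis, Polo-like and Aurora kinases build the spindle, kinetochores tie chromosomes to it, and the anaphase-promoting complex ends mitosis by marking cyclin B and securin for destruction. In glioblastoma, as in other tumours, antibodies to the Ki-67 protein that Mki67 encodes are used to count cells in cycle.

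The Fyn-KO libraries held 8976745 to 10396507 counts and the WT libraries 11911864 to 16371244, while 13535 to 14548 genes were detected in Fyn-KO and 7723 to 9924 in WT. Fyn itself stood at 105, 106, 74.5 and 189.8 CPM in Fyn-KO and 1039, 719.9 and 1604 CPM in WT (log2 fold change -3.43 ± 0.51 SE, edgeR quasi-likelihood adjusted p = 0.0121). Its tags can come from outside the altered part, so they show only that the groups differ at this gene in the direction of the labels. Pairs of Fyn-KO libraries had a Spearman correlation of counts across genes of 0.880 to 0.931 and pairs of WT libraries one of 0.122 to 0.354, a description across genes, which are not replicates. The sorted cells also differed in lineage markers. All 13 markers of the oligodendrocyte lineage had a negative log2 fold change and 10 of them fell, with a summed 249 to 1606 CPM in Fyn-KO and 15897 to 33149 CPM in WT, and no marker was at 0 in all libraries of either group. All 12 markers of steroid-producing cells were higher in every Fyn-KO library than in every WT library and 6 passed the test, with a summed 26681 to 31750 CPM in Fyn-KO and 217 to 479.9 CPM in WT, where Cyp17a1, Nr5a1, Lhcgr, Mgarp and Akr1b7 had no count. Of 9 tested markers of ovarian granulosa cells 6 rose, with 571 to 739.6 CPM in Fyn-KO and 0.0611 to 26.5 CPM in WT, where 7 of 10 had no count. Of 13 macrophage and microglia markers 2 rose (443 to 498 CPM in Fyn-KO, 217 to 676 CPM in WT, none without a count in a whole group), and of 11 endothelial markers 2 rose (550.04 to 679 CPM in Fyn-KO, 0.939 to 1687 CPM in WT, where Emcn had no count). Of 10 T and B cell markers 1 was tested and did not pass (2.90 to 10.3 CPM in Fyn-KO, 0 to 0.336 CPM in WT), with 4 without a count in Fyn-KO and 7 in WT. Of 5 tested erythroid markers none passed in edgeR (1068 to 1137 CPM in Fyn-KO, 25.7 to 667 CPM in WT). Of 7 tested secreted genes of liver and lung 5 fell. The other 2 had a positive log2 fold change and did not pass, Apoa1 with 203 counts in Fyn-KO and 8 in WT and Trf with 5313 and 3836. The list took 118 to 179.7 CPM in Fyn-KO, where Alb, Apoa2, Sftpa1, Sftpb and Chil3 had no count, and 608 to 1301 CPM in WT. Counts of marker genes are read beside the 19.0% of all tested genes that rose and the 3.51% that fell, and those of macrophages (15.4% rose) and endothelium (18.2%) lie near it. Steroid-producing and granulosa cells are not part of the labelled glioblastoma, and the labels do not account for the liver and lung genes that fell from WT. Where these tags come from was not tested, and the labelled origin of the libraries remains in doubt. Each value below compares the libraries labelled Fyn-KO with those labelled WT. The part that these markers have in the results was not tested, and in these bulk libraries fewer dividing cells and less of a transcript per cell cannot be told apart.

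In Fyn-KO, 5 of the 37 mitotic genes fell, none rose and 32 did not pass the test (adjusted p under 0.05 in edgeR's quasi-likelihood test, corrected over all tested genes). The 5 were Cdk1, Plk1, Cdc20, Birc5 and Top2a, with WT means 2.38 to 6.98 times the Fyn-KO means. They make up 13.5% of the set, where 3.51% of all tested genes fell and 19.0% rose. At an unadjusted p under 0.05, 7 members were lower and 1 was higher in edgeR. DESeq2 called 7 members lower (7.0% of all genes were) and 2 higher (27.2%), with no adjusted p for 7 members.

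The count of members that fell changed with each library left out, and so did the share of all genes that fell. It was 1 without Fyn-KO replicate 1 (2.03% of all genes), 2 without replicate 2 (1.99%), 3 without replicate 3 (2.85%) and 2 without replicate 4 (2.1%), and in none of these fits did a member rise (17.7%, 17.8%, 19.1% and 19.0% of all genes did). Leaving out WT replicate 1 gave 8 that fell (5.17%) and 1 that rose (19.9%). Leaving out WT replicate 2 gave 6 that fell (6.0%) and 9 that rose (32.8%), and leaving out WT replicate 3 gave 6 that fell (5.08%) and 2 that rose (22.1%). Of the 25 members among 6446 genes reaching 10 counts in 2 WT and 3 Fyn-KO libraries or more, 1 fell (2.16% of those genes) and none rose (0.807%). Cdk1 fell in every fit.

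**Figure D1:**
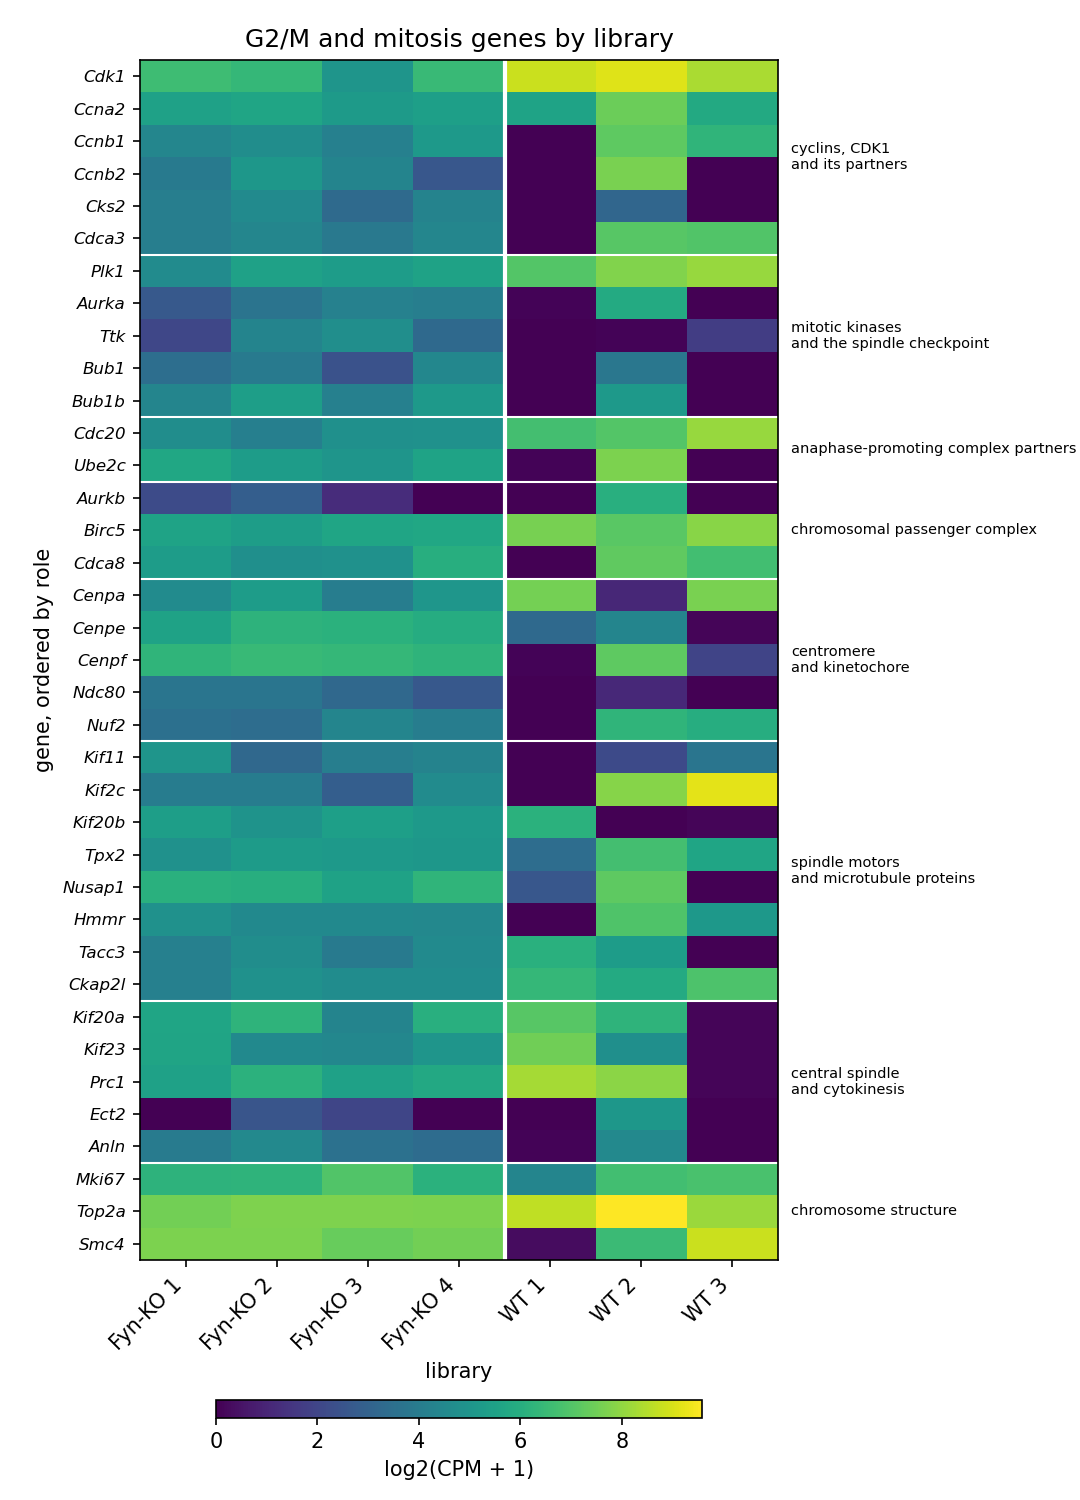
Level of each of the 37 genes in each library as log2(CPM + 1), by colour, with 4 Fyn-KO libraries left of the white line and 3 WT libraries right of it and the genes ordered by role. The Fyn-KO columns look alike, while in WT 1 and WT 3 many genes are at or near 0 beside genes at their highest level.

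Cdk1, the kinase that drives entry into mitosis, was the member with the lowest p. The gene lies on GRCm38 chromosome 10 from 69335146 to 69352938 on the minus strand. It stood at 95.6, 83.2, 30.6 and 89.7 CPM in Fyn-KO libraries 1 to 4, against 446, 555 and 325 CPM in WT libraries 1 to 3. Every WT library lay more than 3 times above the highest Fyn-KO library, and Fyn-KO 3 lay lowest of all. The log2 fold change was -2.61 ± 0.47 (SE, edgeR adjusted p = 0.0121), and Cdk1 fell under each of the 16 alternatives, with a log2 fold change of -2.83 to -2.26 and an adjusted p of 0.000106 to 0.0490.

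Plk1, the Polo-like kinase that matures centrosomes and activates CDK1 (chromosome 7, 122159439 to 122169873, plus strand), stood at 23.4, 43.7, 38.6 and 44.4 CPM in Fyn-KO, against 127, 215 and 274 CPM in WT. The groups did not overlap, and Fyn-KO 1 was the lowest library. Its log2 fold change was -2.58 ± 0.62 (SE, edgeR adjusted p = 0.0180). The call was lost without Fyn-KO replicate 1 (log2 fold change -2.39, adjusted p = 0.0569).

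Cdc20, the activator of the anaphase-promoting complex (chromosome 4, 118432901 to 118437352, minus strand), stood at 25.1, 16.4, 27.1 and 27.4 CPM in Fyn-KO, against 104, 127 and 271 CPM in WT. WT 3 was the highest by a factor above 2, and all WT libraries exceeded all Fyn-KO libraries. The log2 fold change was -2.99 ± 0.73 (SE, edgeR adjusted p = 0.0191), and the call was lost without Fyn-KO replicate 1, 2 or 4 (adjusted p 0.0581, 0.0606 and 0.0521). The last 500 bases of Cdc20 overlap Elovl1 on the opposite strand in the annotation, and no source used here says whether counting used strand, so tags of the 2 genes may be mixed.

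Birc5, which encodes survivin, a subunit of the chromosomal passenger complex that corrects chromosome attachment (chromosome 11, 117849251 to 117855743, plus strand), stood at 46.4, 39.1, 48.7 and 51.8 CPM in Fyn-KO, against 197, 139 and 235 CPM in WT. The groups did not overlap, with a coefficient of variation of 11.7% in Fyn-KO and 25.6% in WT. The log2 fold change was -2.18 ± 0.57 (SE, edgeR adjusted p = 0.0271), and the call was lost without any 1 Fyn-KO replicate (adjusted p 0.0832, 0.0867, 0.0569 and 0.0708 without replicates 1 to 4).

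Top2a, the topoisomerase that untangles sister chromatids (chromosome 11, 98992943 to 99024189, minus strand), stood at 185, 212, 211 and 208 CPM in Fyn-KO, against 408, 765 and 280.5 CPM in WT. The Fyn-KO libraries were nearly equal, with a coefficient of variation of 6.11%, and WT 3 lay closest to them. Its log2 fold change of -1.22 ± 0.34 (SE, edgeR adjusted p = 0.0358) was the smallest of the 5. The call was lost without Fyn-KO replicate 1, 2, 3 or 4 (adjusted p 0.118, 0.103, 0.0844 and 0.0991), without WT replicate 2 (0.0535), with library totals in place of TMM factors (0.0547) and without the filter (0.0513). Among genes detected in both groups Plk1, Cdc20, Birc5 and Top2a did not pass (adjusted p 0.0787, 0.0845, 0.110 and 0.252), and Birc5 did not pass in limma-voom (0.0745).

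**Figure D2:**
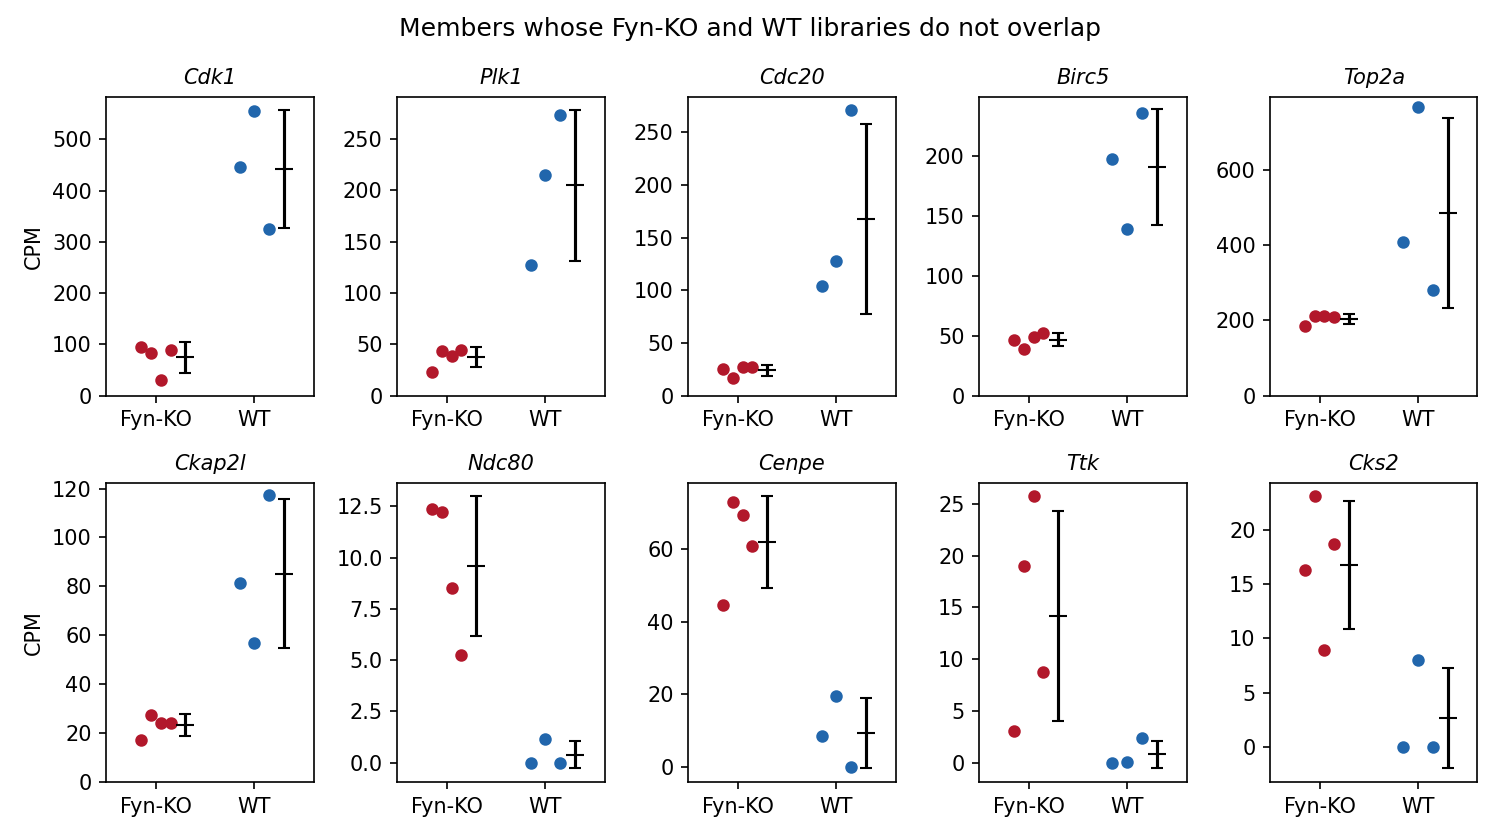
CPM of the 10 members whose Fyn-KO and WT libraries do not overlap, 1 point per library, Fyn-KO at the left and WT at the right, with the mean and SD as a bar beside the points. In the 5 genes of the upper row and in Ckap2l every WT library is higher, and in Ndc80, Cenpe, Ttk and Cks2 every Fyn-KO library is higher.

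The promoters of these 5 genes are shown because late cell cycle genes are known to share the CHR element, which the MuvB complex binds, and CCAAT boxes, which the factor NF-Y binds. Each is the RefSeq window on GRCm38.p6 from 250 bases before to 50 bases after the annotated start, read 5′ to 3′ on the gene's strand, with TTTGAA (the CHR letters) and CCAAT in capitals on either strand, so that TTCAAA and ATTGG are the same motifs read from the other strand.
Cdk1, chr10:69352863-69353162, minus strand: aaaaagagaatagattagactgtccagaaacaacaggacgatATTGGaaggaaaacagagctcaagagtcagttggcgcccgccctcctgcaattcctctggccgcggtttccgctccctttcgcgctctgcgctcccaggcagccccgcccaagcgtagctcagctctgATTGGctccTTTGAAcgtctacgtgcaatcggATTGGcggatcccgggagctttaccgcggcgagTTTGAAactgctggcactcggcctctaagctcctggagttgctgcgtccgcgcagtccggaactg
Plk1, chr7:122159185-122159484, plus strand: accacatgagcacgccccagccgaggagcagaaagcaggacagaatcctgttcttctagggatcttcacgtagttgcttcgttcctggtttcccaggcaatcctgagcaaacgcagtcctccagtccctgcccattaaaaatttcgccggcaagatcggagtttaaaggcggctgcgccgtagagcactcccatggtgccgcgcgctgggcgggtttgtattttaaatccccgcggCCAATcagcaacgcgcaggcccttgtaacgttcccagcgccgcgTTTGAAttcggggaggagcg
Cdc20, chr4:118437294-118437593, minus strand: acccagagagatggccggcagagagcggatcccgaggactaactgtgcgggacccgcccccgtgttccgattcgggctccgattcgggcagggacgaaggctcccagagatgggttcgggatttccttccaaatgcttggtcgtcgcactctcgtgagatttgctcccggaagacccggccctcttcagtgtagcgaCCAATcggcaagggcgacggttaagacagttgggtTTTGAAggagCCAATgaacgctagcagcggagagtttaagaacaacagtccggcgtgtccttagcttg
Birc5, chr11:117848987-117849286, plus strand: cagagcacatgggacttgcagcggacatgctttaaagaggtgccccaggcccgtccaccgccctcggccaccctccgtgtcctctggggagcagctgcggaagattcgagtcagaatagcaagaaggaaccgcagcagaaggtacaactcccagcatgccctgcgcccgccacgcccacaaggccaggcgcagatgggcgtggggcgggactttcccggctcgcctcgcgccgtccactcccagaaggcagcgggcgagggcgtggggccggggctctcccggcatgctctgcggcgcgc
Top2a, chr11:99024140-99024439, minus strand: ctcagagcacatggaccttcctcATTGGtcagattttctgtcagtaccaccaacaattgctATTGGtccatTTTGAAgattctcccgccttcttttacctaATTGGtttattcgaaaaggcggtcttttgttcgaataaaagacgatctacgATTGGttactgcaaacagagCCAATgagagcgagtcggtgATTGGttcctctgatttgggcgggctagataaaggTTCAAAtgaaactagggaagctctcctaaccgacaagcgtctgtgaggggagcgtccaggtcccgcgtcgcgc
Both motifs were found in 4 of the 5 windows, those of Cdk1, Plk1, Cdc20 and Top2a, and neither in that of Birc5. The table held a window for 32 members and none for Aurkb, Ccna2, Kif20a, Smc4 and Tpx2. Of the 32, 24 (75%) held TTTGAA and 24 (75%) held CCAAT, against 18.1% and 37.9% of 27025 genes with a window, each taken at its first listed start. Both were found in 20 members (62.5%), against 7.12% of all genes, and 4 members held neither. Matches overlapped each other in 2 of the member windows. A match is a stretch of letters and no measured site, and members that fell and members that did not pass both hold them.

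Ckap2l, Ndc80, Cenpe, Ttk and Cks2 separated the groups without passing the test. Of the 37 members, 6 were lower in every Fyn-KO library than in any WT library and 4 were higher, where 7.32% and 30.1% of all tested genes did so. Ckap2l, a spindle protein of neural progenitors, was the sixth lower one at 17.05, 27.5, 24.3 and 24.3 CPM in Fyn-KO, against 81.3, 56.7 and 117 CPM in WT (log2 fold change -2.04 ± 0.81, edgeR adjusted p = 0.115). It passed without WT replicate 2 (-2.37, adjusted p = 0.0279) and in DESeq2 (-2.06, 0.00641). Ndc80 and Cenpe also passed in DESeq2 (adjusted p = 0.00481 and 0.0498), and Ttk did not (0.0578). The 4 higher genes all had a WT library without a count or with 1. They passed the filter on low counts only through Fyn-KO, so their adjusted p in edgeR or DESeq2 adds no support. Ndc80, the kinetochore subunit that grips microtubules, had 12.4, 12.2, 8.54 and 5.24 CPM in Fyn-KO and 0, 1.16 and 0 CPM in WT (4.80 ± 1.86, edgeR adjusted p = 0.105). Cenpe, a kinetochore motor that moves chromosomes to the spindle equator, had 44.4, 72.8, 69.2 and 60.7 CPM in Fyn-KO and 8.61, 19.5 and 0.0839 CPM in WT (2.89 ± 1.46, adjusted p = 0.223). In both genes the lowest Fyn-KO library lay more than 2 times above the highest WT library. Ttk, the kinase that starts the spindle checkpoint, had 3.09, 19.04, 25.7 and 8.80 CPM in Fyn-KO and 0, 0.0611 and 2.35 CPM in WT (edgeR adjusted p = 0.260), where Fyn-KO 1 and WT 3 almost touch. Cks2, a small partner of CDK1, had 16.3, 23.1, 8.98 and 18.7 CPM in Fyn-KO and 0, 8.002 and 0 CPM in WT (edgeR adjusted p = 0.432), with Fyn-KO 3 just above WT 2. The 10 members that separated the groups are 27.0% of the set, where 37.4% of all tested genes did. With TMM factors it was 9 members (37.6% of all genes), and 19 members (51.4%) without WT replicate 1 (50.3% of all genes) or without WT replicate 2 (55.9%), so the members' share stayed near or below that of all genes. Ndc80 and Cks2 passed without WT replicate 2, a fit whose WT libraries hold no count of either gene. Cenpe and Ttk passed without WT replicate 3, where WT 1 and WT 2 hold 0 and 1 count of Ttk. For Ndc80, Cks2 and Ttk the call follows from the library left out and adds no support. The same holds below for Ccnb2, Aurka, Bub1, Bub1b, Ube2c and Anln without WT replicate 2, and for Kif20b without WT replicate 1.

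The cyclins and partners of CDK1 did not move as 1 group. Ccna2, cyclin A2, stood at 43.6, 48.2, 35.9 and 41.1 CPM in Fyn-KO and 46.1, 170.5 and 55.4 CPM in WT, where WT 1 and WT 3 lay close to Fyn-KO and WT 2 far above. Ccnb1, cyclin B1, stood at 19.8, 24.8, 17.2 and 34.9 CPM in Fyn-KO and 0, 148 and 76.3 CPM in WT. Ccnb2, cyclin B2, stood at 13.96, 32.5, 18.8 and 5.01 CPM in Fyn-KO and 0, 198 and 0 CPM in WT. All 4 Fyn-KO libraries held both B-type cyclins, while WT 1 had no count of either and WT 3 none of Ccnb2, in libraries where Cdk1 was at 446 and 325 CPM. Cdca3, a trigger of mitotic entry that acts in the breakdown of WEE1, stood at 16.2, 19.8, 13.6 and 20.3 CPM in Fyn-KO and 0, 135 and 125 CPM in WT. Of the 6 genes of this role 1 fell and 5 did not pass. Ccnb1 and Cdca3 fell without WT replicate 1 (log2 fold change -2.23 and -3.01, edgeR adjusted p = 0.0366 and 0.0153), and Ccnb2 rose without WT replicate 2 (adjusted p = 0.00614), a fit whose WT libraries hold no count of it. A count of 0 in a WT library allows 0.183 to 0.252 CPM (3 counts, counting error only).

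Among the mitotic kinases and checkpoint genes beside Plk1 and Ttk, WT 2 alone held most of the WT counts. Aurka, the Aurora kinase of spindle poles, stood at 5.43, 12.02, 17.7 and 15.9 CPM in Fyn-KO and 0.0783, 57.5 and 0 CPM in WT. Bub1, a checkpoint kinase at kinetochores, stood at 10.02, 13.9, 4.27 and 20.7 CPM in Fyn-KO and 0, 13.01 and 0 CPM in WT. Its relative Bub1b, which encodes the checkpoint protein BubR1, stood at 19.3, 40.2, 17.2 and 34.4 CPM in Fyn-KO and 0, 35.3 and 0 CPM in WT. For Bub1 and Bub1b WT 2 lay within the Fyn-KO range, and for Aurka above it. None of the 3 passed (edgeR adjusted p = 0.952, 0.672 and 0.739), and each rose without WT replicate 2 (adjusted p = 0.00526, 0.00526 and 0.00455), against WT libraries with no count or 1. Ube2c, the ubiquitin-conjugating enzyme that works with the anaphase-promoting complex, stood at 50.8, 38.3, 31.3 and 45.8 CPM in Fyn-KO and 0.0783, 203 and 0 CPM in WT and rose in the same fit (adjusted p = 0.00458), but did not pass with all libraries (0.933 in edgeR).

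The subunits of the chromosomal passenger complex were at odds within single WT libraries. Aurkb, its kinase, stood at 3.52, 6.35, 1.31 and 0 CPM in Fyn-KO and 0, 64.6 and 0 CPM in WT, and Cdca8, which encodes its subunit borealin, at 38.7, 26.5, 27.7 and 63.7 CPM in Fyn-KO and 0, 151 and 101 CPM in WT. WT 1 held 197 CPM of the subunit gene Birc5 and no count of the other two, while WT 2 held all 3. Neither Aurkb nor Cdca8 passed (edgeR adjusted p = 0.572 and 0.732). Incenp, the scaffold of the complex and no member of the set, stood at 41.02, 45.1, 42.4 and 33.2 CPM in Fyn-KO and 13.5, 143 and 0.0839 CPM in WT.

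The kinetochore genes showed the same unevenness. Nuf2, the partner of Ndc80 in a heterodimer, stood at 10.5, 9.62, 19.7 and 15.6 CPM in Fyn-KO and 0, 76.5 and 60.9 CPM in WT, so that WT 2 and WT 3 lay above every Fyn-KO library for Nuf2 and below every one for Ndc80. Spc24 and Spc25, the other subunits of that complex, were uneven as well, with Spc24 at 15.8, 7.89, 6.79 and 7.13 CPM in Fyn-KO against 0.548, 22.2 and 0.168 CPM in WT, and Spc25 at 16.6, 29.5, 26.3 and 17.04 CPM in Fyn-KO against 223, 73.5 and 0 CPM in WT. Cenpa, the histone H3 variant of centromeres, stood at 23.9, 38.1, 15.5 and 31.6 CPM in Fyn-KO and 189, 1.10 and 201 CPM in WT, where WT 2 alone lay below the Fyn-KO range. Cenpf, a large protein of the kinetochore and nuclear envelope, stood at 75.7, 87.05, 82.5 and 74.3 CPM in Fyn-KO and 0.0783, 145 and 2.85 CPM in WT. Its Fyn-KO coefficient of variation was 7.49% and its WT one 168%. None of the 5 members of this role passed in edgeR (log2 fold change -2.52 to 4.80), while Ndc80 and Cenpe rose in DESeq2, as given above. Without WT replicate 2 Cenpa fell (-3.10, edgeR adjusted p = 0.00666) and Cenpf rose (5.35, adjusted p = 0.0416).

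**Figure D3:**
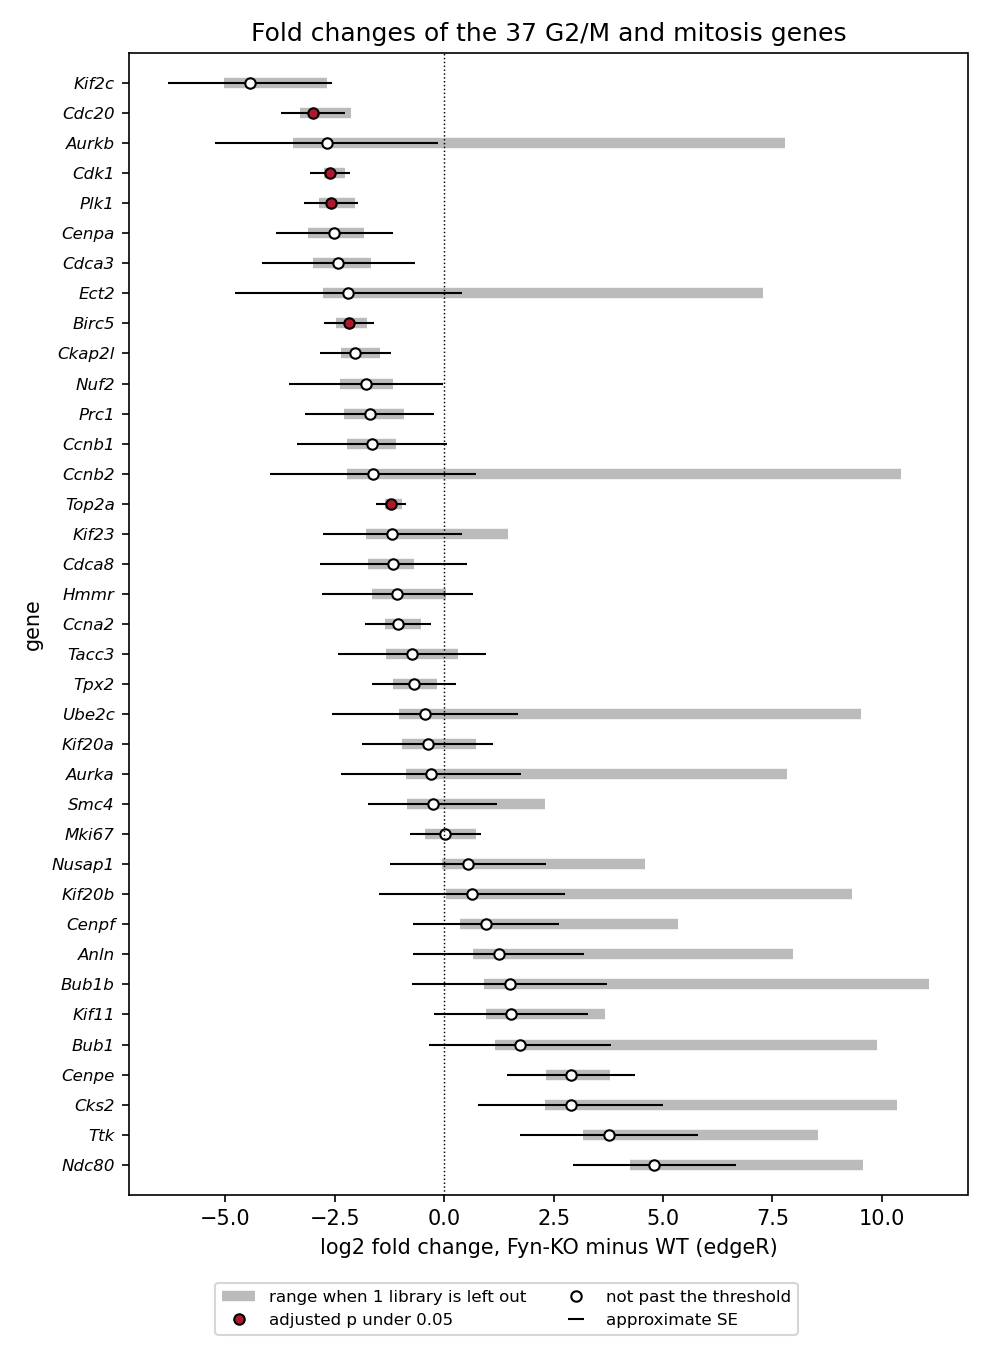
Log2 fold change, Fyn-KO minus WT, of the 37 genes in the edgeR fit, sorted, with the approximate SE as a thin line and the range over the 7 fits that each leave out 1 library as a grey band. Filled points are the 5 genes past the threshold, whose bands stay below 0, and the long bands to the right belong to genes with nearly all WT counts in 1 library.

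None of the 8 spindle motor and microtubule genes passed in edgeR, while Kif2c (adjusted p = 0.0362) and Ckap2l (0.00641) fell in DESeq2. Kif2c, a kinesin that takes microtubules apart, had the most negative fold change of the set at -4.44 ± 1.88 (edgeR adjusted p = 0.139). The gene stood at 15.1, 15.4, 6.35 and 23.4 CPM in Fyn-KO and 0, 229 and 579 CPM in WT, so that WT 3 lay far above and WT 1 below every Fyn-KO library. Without WT replicate 1 it fell (-5.03, adjusted p = 0.0145). Kif11, the motor that separates spindle poles, stood at 31.01, 8.46, 16.2 and 18.6 CPM in Fyn-KO and 0, 3.48 and 12.2 CPM in WT, and Kif20b, a kinesin of late division, at 39.9, 29.3, 41.8 and 33.98 CPM in Fyn-KO and 68.8, 0 and 0.0839 CPM in WT. Kif20b had more than 1 count in WT 1 alone among WT libraries, and without WT replicate 1 it rose (adjusted p = 0.0147). Tpx2, the spindle assembly factor that activates AURKA, stood at 28.02, 37.6, 35.6 and 32.97 CPM in Fyn-KO and 9.86, 105 and 48.6 CPM in WT. Nusap1, a microtubule bundler, stood at 65.96, 62.6, 44.8 and 75.5 CPM in Fyn-KO and 5.01, 147 and 0 CPM in WT. These 2 genes were even across Fyn-KO and stretched on both sides of it in WT. Hmmr, a spindle protein and hyaluronan receptor, stood at 27.7, 22.4, 22.3 and 20.9 CPM in Fyn-KO and 0, 123 and 33.7 CPM in WT, and Tacc3, which steadies kinetochore fibres, at 16.8, 25.01, 14.6 and 23.2 CPM in Fyn-KO and 65.98, 38.3 and 0 CPM in WT.

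The 5 genes of the central spindle and cytokinesis had no count or 1 in WT 3, where 17 of the 37 members and 56.2% of all tested genes were under 10 counts. Prc1, which bundles the central spindle, stood at 43.7, 69.9, 43.7 and 54.6 CPM in Fyn-KO and 312, 241 and 0.0839 CPM in WT. Kif20a, a kinesin of the central spindle, had 48.8, 75.03, 19.2 and 64.2 CPM in Fyn-KO, against 135, 73.8 and 0.0839 CPM in WT. Kif23, the kinesin of centralspindlin, had 46.99, 22.4, 20.7 and 31.2 CPM in Fyn-KO, against 181, 26.4 and 0.0839 CPM in WT. WT 3 held 1 count of each of these 3 genes. Ect2, the exchange factor that switches on RhoA at the cell equator, stood at 0, 4.81, 2.96 and 0 CPM in Fyn-KO and 0, 32.7 and 0 CPM in WT, and Anln, the ring protein anillin, at 14.9, 21.5, 11.1 and 9.36 CPM in Fyn-KO and 0.0783, 21.5 and 0 CPM in WT. WT 3 held no count of these 2, and WT 1 none of Ect2 and 1 of Anln. None of the 5 passed (edgeR adjusted p 0.525 to 0.914). Prc1 fell without WT replicate 3 (-2.29, edgeR adjusted p = 0.00895) and Anln rose without WT replicate 2 (adjusted p = 0.00462). Without WT replicate 2, the WT libraries hold 1 count of Anln, so its call adds no support. The last 500 bases of Prc1, Kif20a, Ccna2 and Ube2c each overlap another gene of the table on the opposite strand, as do those of Ckap2l a gene outside it, with the same limit as for Cdc20.

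Mki67, the gene of the proliferation antigen Ki-67, did not differ beyond its spread. It stood at 72.7, 73.9, 127 and 68.3 CPM in Fyn-KO and 19.8, 102 and 112 CPM in WT, so that the Fyn-KO libraries lay inside the WT range apart from Fyn-KO 3. The means were 85.4 ± 27.7 CPM in Fyn-KO (SD, n = 4) and 77.8 ± 50.5 CPM in WT (n = 3), with a log2 fold change of 0.03 ± 0.81 (edgeR adjusted p = 0.987). The fold change lay between -0.44 and 0.73 over the 16 alternatives. Smc4, a condensin subunit that compacts chromosomes, stood at 208, 207, 164 and 184 CPM in Fyn-KO and 0.235, 92.1 and 451 CPM in WT. WT 1 was near 0 and WT 3 the highest of all 7 libraries, and the log2 fold change was -0.26 ± 1.47 (adjusted p = 0.942).

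Summed over the set, WT held more mitotic tags. The 37 genes together took 1460, 1621, 1365 and 1583 CPM in Fyn-KO and 2407, 4522 and 3364 CPM in WT, so every WT library lay above every Fyn-KO library. The 5 genes that fell took 356 to 422 CPM of this in Fyn-KO and 1283 to 1801 CPM in WT, and the other 32 took 1009 to 1227 CPM in Fyn-KO and 1123 to 2720 CPM in WT, where the ranges overlap. The median log2 fold change of the 37 was -1.06, against 0.45 for all tested genes. The mean of log2(CPM + 1) over the set pointed the other way. It was 4.69, 4.98, 4.61 and 4.80 in Fyn-KO and 2.91, 5.75 and 3.52 in WT, and it was 0.71 higher in Fyn-KO on average, a difference smaller than the WT SD of 1.49. A sum follows the abundant genes and a mean of logs follows the genes at 0, and the 2 disagree here.

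The set was covered evenly in Fyn-KO and unevenly in WT. In Fyn-KO 35 of the 37 genes had 10 or more counts in each library, the exceptions being Aurkb in Fyn-KO 4 and Ect2 in Fyn-KO 1 and 4. In WT 10 did, namely Cdk1, Plk1, Cdc20, Birc5, Top2a, Ckap2l, Cenpa, Ccna2, Tpx2 and Mki67, while 15 fell short in 1 WT library and 12 in 2. By library, 1, 0, 0 and 2 members were under 10 counts in Fyn-KO and 20, 2 and 17 in WT, with no count at all for 15, 1 and 12 of these. The WT libraries lacked 54.1%, 5.41% and 45.9% of the members, beside 56.5%, 33.2% and 56.2% of all tested genes. In some WT library 73.0% of the members and 73.6% of all tested genes fell short. The different WT libraries lacked different genes: WT 1 lacked Cdca3 and Kif2c, which WT 3 held at 125 and 579 CPM, and WT 3 lacked Prc1 and Kif23, which WT 1 held at 312 and 181 CPM. Of 23 members at 100 CPM or more in a WT library, 13 (56.5%) stood under 1 CPM in another, against 40.8% of 4771 tested genes at that level. In Fyn-KO it was 0 of 3 members and 0.0396% of 2524 genes. The median coefficient of variation over the members was 32.5% in Fyn-KO and 108% in WT, close to the 34.7% and 128% of all tested genes. All 5 genes that fell are among the 10 covered in every WT library, and this coverage describes the same counts that the test used.

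**Figure D4:**
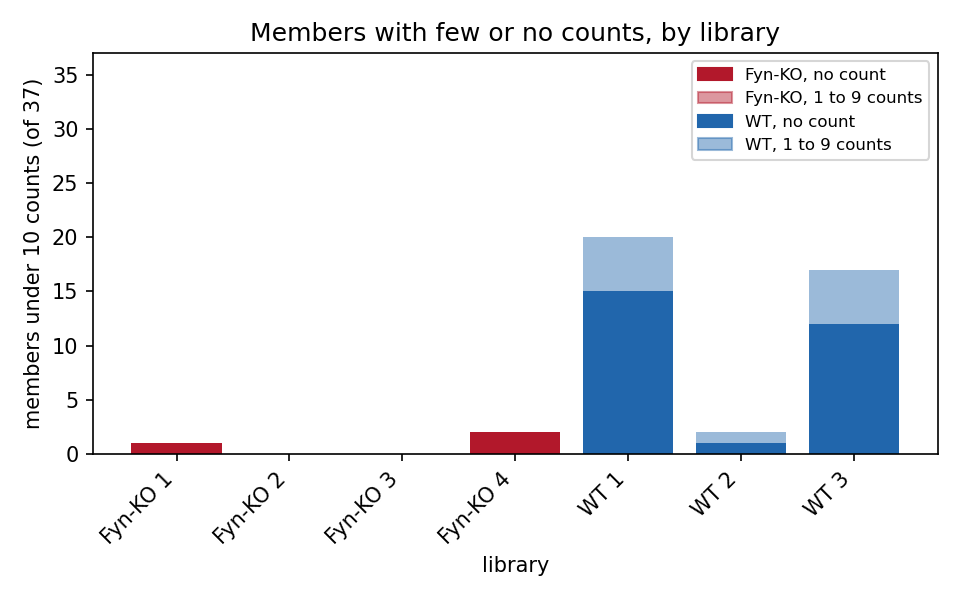
Number of the 37 genes with under 10 counts in each library, with genes without a count in full colour and genes with 1 to 9 counts in pale colour. The Fyn-KO libraries at the left lack 0 to 2 genes, and WT 1, WT 2 and WT 3 lack 20, 2 and 17.

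Other genes of mitosis, a list of 77 chosen without the 37, gave few calls in either direction in edgeR. Of 73 tested, 4 rose (5.48%, beside 19.0% of all tested genes), 2 fell (2.74%, beside 3.51%) and 67 did not pass, with a median log2 fold change of -0.95. In DESeq2 5 rose (6.85%, beside 27.2% of all genes) and 8 fell (10.96%, beside 7.0%). Racgap1, the partner of KIF23 in the centralspindlin complex, fell to 10.5, 9.52, 27.1 and 28.4 CPM in Fyn-KO, against 45.2, 327 and 303 CPM in WT (log2 fold change -3.66 ± 0.90, edgeR adjusted p = 0.0199). Cdca5, which encodes sororin, a protector of sister chromatid cohesion, had 3.20, 5.19, 5.91 and 2.67 CPM in Fyn-KO and no count in WT (at least 16.9-fold higher against 3 counts per WT library, adjusted p = 0.0121). Dsn1, a subunit of the MIS12 kinetochore complex, had 7.57, 7.98, 0.219 and 7.91 CPM in Fyn-KO and no count in WT (at least 23.5-fold higher, adjusted p = 0.0223). Cenpk, a centromere protein, had 33.8, 12.6, 21.9 and 15.7 CPM in Fyn-KO and 0, 0.611 and 0.0839 CPM in WT and rose (adjusted p = 0.0295). Cdc25c, a phosphatase that activates CDK1, had 1.81, 2.89, 0.109 and 3.01 CPM in Fyn-KO and no count in WT (at least 7.76-fold higher, adjusted p = 0.0261). Ckap2, a spindle protein related to Ckap2l, fell to 30.9, 18.1, 7.11 and 15.04 CPM in Fyn-KO, against 174, 171 and 70.6 CPM in WT (-2.97 ± 0.79, adjusted p = 0.0279). The 4 that rose had few or no WT counts and passed the filter on low counts only through Fyn-KO. The folds given set the Fyn-KO mean against 0.252 CPM, the highest level that 3 counts make in a WT library. For Dsn1 and Cdc25c, Fyn-KO 3 lay under that level. The counts moved with single libraries, to 1 that rose without Fyn-KO replicate 1, 2 or 4 (17.7%, 17.8% and 19.0% of all genes did) and 21 of 76 without WT replicate 2 (27.6%, beside 32.8% of all genes). When any 1 WT library was left out 5 of 76 fell (6.58%, beside 5.17%, 6.0% and 5.08% of all genes without WT 1, 2 and 3). When Fyn-KO 1, 3 or 4 was left out 1 fell, and when Fyn-KO 2 was, none did (2.03%, 2.85%, 2.1% and 1.99% of all genes). The summed list took 1548 to 1731 CPM in Fyn-KO and 2727 to 4608 CPM in WT, close to the sums of the 37.

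**Figure D5:**
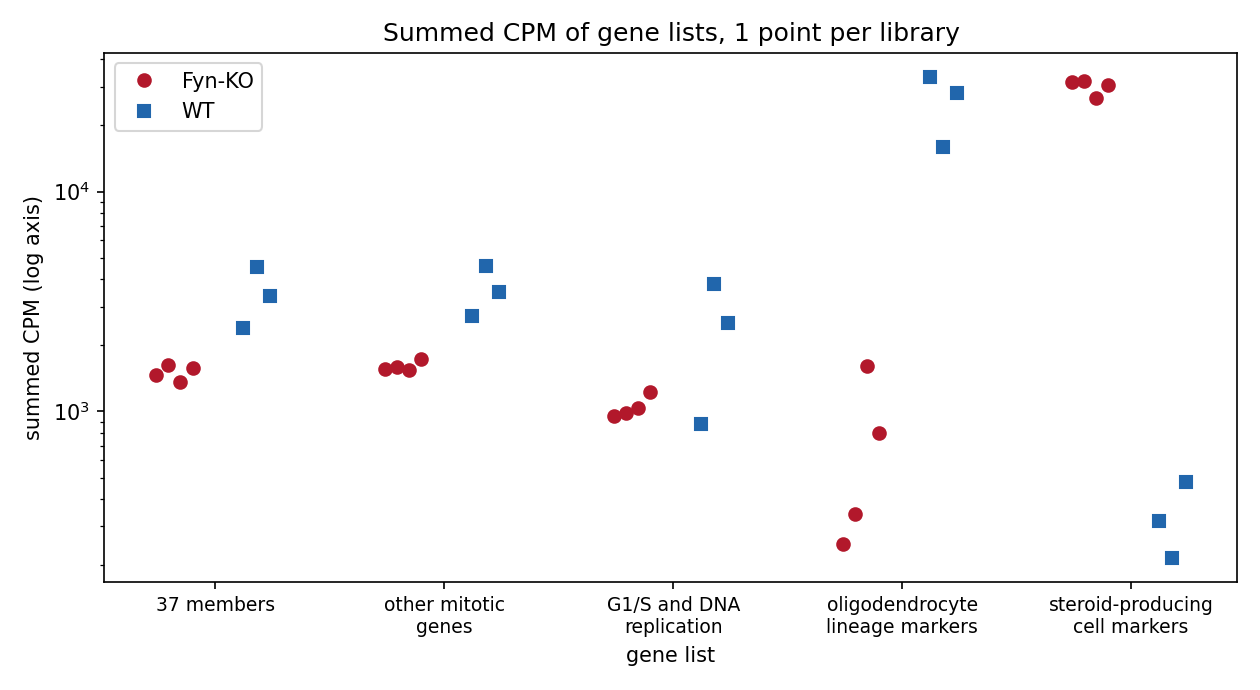
Summed CPM per library, on a log axis, of the 37 genes, of 2 other cell cycle lists and of 2 lists of lineage markers, with Fyn-KO as circles at the left and WT as squares at the right of each list. The WT libraries lie above Fyn-KO for the 37 genes and the other mitotic genes, span the Fyn-KO range for G1/S genes, and stand far apart in opposite directions for the 2 marker lists.

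Of 20 transcription factors and cofactors of the cell cycle 3 rose (15%) and 1 fell (5%), near the 19.0% and 3.51% of all tested genes, with a median log2 fold change of -0.12. Mybl2, which encodes the B-MYB factor that binds MuvB, had 3.52, 6.35, 4.93 and 2.90 CPM in Fyn-KO and no count in WT (at least 17.6-fold higher, edgeR adjusted p = 0.0121), and Tfdp2, a dimer partner of E2F factors, had 90.4, 106, 70.7 and 85.6 CPM in Fyn-KO and 0, 0.428 and 0.756 CPM in WT (adjusted p = 0.0139). Lin37, a MuvB subunit, had 3.52, 5.77, 15.3 and 0.668 CPM in Fyn-KO and no count in WT (at least 25.1-fold higher, adjusted p = 0.0207). These 3 genes passed the filter on low counts only through Fyn-KO. Rbbp4, the histone-binding MuvB subunit, fell to 234, 242, 200.3 and 284 CPM in Fyn-KO, against 364, 827 and 594 CPM in WT (log2 fold change -1.37 ± 0.35, adjusted p = 0.0245). Foxm1, the forkhead factor of G2 genes, stood at 4.58, 9.14, 4.93 and 12.7 CPM in Fyn-KO and 55.9, 113 and 0.0839 CPM in WT and did not pass (adjusted p = 0.316). Without WT replicate 2, 8 of the list rose (40%, beside 32.8% of all genes). The count of 1 that fell became 3 without WT replicate 3 (15%, beside 5.08% of all genes). It was 0 without Fyn-KO replicate 1, 2, 3 or 4 (2.03%, 1.99%, 2.85% and 2.1% of all genes fell).

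Of 16 subunits and activators of the anaphase-promoting complex 3 rose and none fell in edgeR, and the share that rose (18.75%) was near the 19.0% of all tested genes, as was the median log2 fold change of 0.50 to their 0.45. Cdc26 had 18.6, 32.03, 8.43 and 38.8 CPM in Fyn-KO and no count in WT (at least 97.2-fold higher, edgeR adjusted p = 0.0121). Anapc10 had 22.2, 20.3, 16.6 and 24.95 CPM in Fyn-KO and 0, 0 and 0.0839 CPM in WT, a Fyn-KO over WT ratio of 861 (95% exact interval 154 to 34066). Anapc7 had 49.97, 29.3, 54.9 and 67.1 CPM in Fyn-KO and 0, 0 and 0.252 CPM in WT, a ratio of 678 (232 to 3292). These intervals cover counting error only. The 3 genes were present in all Fyn-KO libraries and passed the filter on low counts only through them. Of the list 6 rose without WT replicate 2 (37.5%, beside 32.8% of all genes) and 2 fell without WT replicate 1 (12.5%, beside 5.17%). Of 7 inhibitors of cyclin-dependent kinases 1 fell (14.3%, beside 3.51% of all tested genes) and none rose in edgeR, with a median of -0.55. Cdkn1b, which encodes p27, stood at 217, 243, 180.5 and 251 CPM in Fyn-KO and 955, 829.9 and 611 CPM in WT (log2 fold change -1.90 ± 0.28, adjusted p = 0.0121), with no overlap, while Cdkn1a, which encodes p21, stood at 81.3, 98.5, 67.8 and 112 CPM in Fyn-KO and 186, 71.96 and 107 CPM in WT and did not pass. In the list of inhibitors 1 rose without WT replicate 2 (32.8% of all genes did).

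Genes of G1/S and DNA replication, the neighbouring part of the cycle, gave 1 that rose (2.04%, beside 19.0% of all tested genes) and 2 that fell (4.08%, beside 3.51%) among 49 tested. Gins2, a subunit of the replicative helicase, fell to 10.7, 10.7, 7.22 and 18.05 CPM in Fyn-KO, against 97.9, 98.5 and 167 CPM in WT (log2 fold change -3.55 ± 0.81, edgeR adjusted p = 0.0150), and Pold3, a subunit of DNA polymerase delta, to 9.48, 15.7, 7.44 and 21.1 CPM in Fyn-KO, against 101, 86.9 and 103 CPM in WT (-2.98 ± 0.83, adjusted p = 0.0350). Ccne2, cyclin E2, had 35.6, 47.3, 67.5 and 30.2 CPM in Fyn-KO and 2 counts in all WT libraries together, a ratio of 929 (95% exact interval 257 to 7674). Ccne2 passed the filter on low counts only through Fyn-KO, so its call adds no support. The summed list took 952 to 1224 CPM in Fyn-KO and 875, 3801 and 2519 CPM in WT, so WT 1 lay below every Fyn-KO library here and above every one for the mitotic set. The list's median was -1.21, beside -1.06 for the mitotic set. In this list 14 of 49 rose when WT 2 was left out (28.6%, beside 32.8% of all genes), 8 fell when WT 1 was (16.3%, beside 5.17%) and 3 rose when Fyn-KO 4 was (6.12%, beside 19.0%). When Fyn-KO 3 or 4 was left out 1 fell (2.13% and 2.04%, beside 2.85% and 2.1% of all genes). None fell when Fyn-KO 1 or 2 was (2.03% and 1.99% of all genes did).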

How the data were processed

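The values are deposited read counts per gene for 7 QuantSeq 3′ libraries of sorted tumour cells, as whole numbers not normalized. The submitters' processing notes name Bowtie2, bedtools, DESeq2 1.32.0 and the mouse build mm10 (GRCm38) without their roles. The deposited counts carry the word modified in their name, and what was modified is not described. Columns were tied to samples by the labels' descriptions. The column called WT 3 here shares its name with the title of another WT sample, so only its group is certain. A tag count depends on a gene's level, not its length, and levels are compared between groups only.

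All genes were tested with edgeR 4.0.16 in R 4.3.3 (filterByExpr, minimum count 10, TMM factors, quasi-likelihood F test, 2-sided, Benjamini-Hochberg adjustment over 13122 genes). SE is the fold change divided by the square root of F. Fold changes are log2, Fyn-KO minus WT. CPM were made from library totals, with 8976745 to 16371244 counts a library. These totals include Rn45s, which took 10.5% to 16.6% of the counts in Fyn-KO and 1.41% to 2.92% in WT. The fit without Rn45s gave the same 5 members that fell. A count of 0 allows 3 counts. A gene with few or no WT counts passed the filter only through Fyn-KO, where it is high. Its adjusted p then adds no support to its counts. Intervals cover counting error only. Alternatives were RLE factors, library totals, leaving out Rn45s, no filter, a minimum count of 50, genes detected in both groups, DESeq2 1.42.0, limma-voom with quality weights (limma 3.58.1), a replicate block, pseudocounts of 0.25 and 5 CPM and leaving out each library. The edgeR step was tested on counts simulated with the same dispersion for every gene in both groups. That test does not cover WT libraries as uneven as these. The median in other fits and the counts of the lists of regulators, G1/S genes and inhibitors under alternatives were added after seeing the data, as were the all-gene shares of separated groups under them. Library pairs differed by more than sampling noise, so no library was counted as a repeat.

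The members and lists were chosen with earlier results of these data known. Every member is given, and of the other cell cycle lists each gene past the threshold. Incenp, Spc24, Spc25, Foxm1 and Cdkn1a were chosen after their values were seen. Gene positions come from GENCODE M21 and promoters from RefSeq.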

Additional observations from a re-analysis of the deposited data

Results flagged for a closer look

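In 2 members 1 Fyn-KO library lay far from the other 3 relative to the range of the group's values. Mki67 was highest in Fyn-KO 3 at 127 CPM, with a gap to the next library of 0.905 of the group's range. Top2a was lowest in Fyn-KO 1 at 185 CPM, with a gap of 0.874 of the range. That range was small, with a coefficient of variation of 6.11% in Fyn-KO. Of 38 sets of Fyn-KO values examined in this way, chance is expected to single out about 5%. The groups of 3 WT libraries were too small for this check.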

How the results depend on the processing

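No member rose and 5 fell in edgeR. DESeq2 gave 2 that rose, genes detected in both groups 1 that fell and the replicate block 1 that fell. Leaving out 1 library gave 0 to 9 that rose (17.7% to 32.8% of all genes did) and 1 to 8 that fell (1.99% to 6.0%). Over all genes, the count that rose was 2493, and 52 among genes detected in both groups, 24 with limma-voom, 269 with the replicate block and 2190 to 4585 without 1 library. The count that fell was 461, and 139, 918 in DESeq2, 169 with the replicate block and 247 to 839 without 1 library. Of other mitotic genes 4 rose, and 2 at a minimum count of 50 and 0 in genes detected in both groups (0.807% of those genes did), limma-voom and the replicate block. It was 1 to 21 without 1 library (17.7% to 32.8% of all genes). Of these genes 2 fell, and 0 in genes detected in both groups (2.16% of those genes did) and 8 in DESeq2 (10.96%, beside 7.0% of all genes). It was 0 with the replicate block (169 of 12498 genes fell) and 0 to 5 without 1 library (1.99% to 6.0% of all genes). Members that did not overlap numbered 10 (27.0%, beside 37.4% of all tested genes), and 10 to 19 without 1 library, where 39.1% to 55.9% of all genes did not overlap. The members' median was 0.96 in limma-voom and 0.70 in the replicate block, where all genes had medians of 2.49 and 3.01, so it stayed below them.

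Directions of single members turned round in some fits, and the cause was not tested. In limma-voom these were Ccnb1 (0.34), Ccnb2 (0.96), Aurka (1.22), Cenpa (1.65), Ube2c (1.92), Kif20a (1.98), Kif23 (1.84), Hmmr (0.88), Prc1 (0.56), Cdca8 (0.82), Smc4 (2.39) and Tacc3 (1.89). In the replicate block they were Ccnb2 (7.61), Aurka (5.39), Aurkb (4.88), Ube2c (7.72), Kif20a (1.01), Kif23 (0.70), Hmmr (0.078), Ect2 (1.03), Smc4 (1.80) and Tacc3 (0.48). Smc4 gave 0.073 with library totals and 0.27 in genes detected in both groups, and Mki67 gave -0.0014 without the filter. Without 1 library, Mki67 ranged over -0.44 to 0.73, Ccnb2 over -2.22 to 10.45, Aurka over -0.88 to 7.83, Aurkb over -3.45 to 7.78, Ube2c over -1.03 to 9.52, Kif20a over -0.96 to 0.74, Kif23 over -1.78 to 1.45, Nusap1 over -0.040 to 4.58, Hmmr over -1.65 to 0.046, Ect2 over -2.77 to 7.30, Smc4 over -0.85 to 2.31 and Tacc3 over -1.32 to 0.32.

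The replicate block used the 6 libraries numbered 1 to 3. Same-numbered libraries had correlations of deviations of -0.0135, -0.00470 and -0.0227, and differently numbered ones lay at -0.0144 to 0.0217. All were near 0, so the check gave no sign that the numbers pair libraries and could not exclude it.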
